A study of Mus musculus with 12 samples.

Results

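The endoplasmic reticulum (ER) stress response genes examined here were 10 mouse genes, Hspa5, Hsp90b1, Pdia4, Calr, Canx, Ddit3, Atf4, Xbp1, Dnajb9 and Sdf2l1, taken by gene symbol. Each was read under its Ensembl identifier, which gave 10 of the 55414 gene records in the deposited counts, and all 10 passed the filter on low counts in every comparison. RNA was sequenced from splenic CD4+ T cells of wild-type male BALB/c mice aged 18 weeks, the helper T lymphocytes purified by negative selection. The LIP group had ligature-induced periodontitis, an inflammation of the gums brought on by silk thread tied around molars, and the CTL group had no ligature. In each group 3 libraries were made from uncultured cells (day 0: CTL 88, 89 and 94, LIP 92, 93 and 94). A further 3 were made after culture to day 2 with 1 µg/mL of anti-TCRβ, 1 µg/mL of anti-CD28 and 10 ng/mL of IL-2, antibodies and a cytokine that activate T cells (CTL 92, 93 and 97, LIP 90, 96 and 97). These doses are those of the labels, and the study's methods give others for anti-TCRβ and IL-2. The day 2 cells were therefore both cultured and activated, and the effects of culture and activation cannot be told apart. For CTL 93 and LIP 96 of day 2 the treatment label names anti-CD29, and for CTL 97 and LIP 97 it names anti-CD30, in place of anti-CD28.

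The ER is where secreted and membrane proteins fold, and chaperones and enzymes there hold, glycosylate and cross-link them on the way. When unfolded proteins accumulate there, the sensors IRE1, PERK and ATF6 start the unfolded protein response: IRE1 splices the Xbp1 transcript, ATF6 is cut free to enter the nucleus, and PERK phosphorylates the translation factor eIF2α. Phosphorylated eIF2α slows protein synthesis and lets the transcription factor ATF4 be translated, an arm called the integrated stress response that other kinases also start when amino acids are short or double-stranded RNA is present. In T cells the demand on the ER grows after activation, when the cells begin to divide and to secrete cytokines.

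Levels are given as CPM, the count of a gene brought to a common library total after TMM scaling. The libraries held 6249094 to 7845715 counts on day 0 in CTL mice, 6280024 to 6625898 on day 0 in LIP mice, 8993235 to 9842624 on day 2 in CTL mice and 8691745 to 12866751 on day 2 in LIP mice, so that 3 counts equal 0.268 to 0.451 CPM. The markers matched the labelled cell type: Cd4 lay between 421 and 643 CPM and Cd8a, of the cytotoxic T cells, between 0.105 and 2.24 CPM. Cd8b1, also of the cytotoxic T cells, lay between 3.29 and 10.9 CPM. The summed CPM of 10 B cell markers was 2.95 to 39.7, that of 8 NK cell markers 5.84 to 67.5, that of 12 myeloid markers 22.7 to 99.4, that of 12 plasma cell markers 62.7 to 174 and that of 25 pancreatic acinar markers 0.961 to 35.7. One library stood apart from its group: the mean chi-square per gene between LIP 90 and the other LIP libraries of day 2 was 43.5 and 34.8, whereas it was 2.82 to 11.9 for every other pair within a group. The values of the 10 genes in LIP mice of day 2 are therefore given with and without LIP 90. For the difference between days, genes not called without LIP 90 have the value with it only. In LIP against CTL of day 2 no gene passed the test with all libraries, and most lists there have call counts without LIP 90 only. Single genes of the lists are given with LIP 90, and those called in the difference between days also without it. The labels number the libraries but do not say that each came from a separate mouse, so the p-values measure the spread between these libraries. In bulk RNA, fewer cells making a transcript and less transcript per cell cannot be told apart.

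The 10 genes spanned a wide range of levels, and the folding machinery lay at the top. Divided by the length of the canonical transcript, Calr reached 144 ± 14.3 CPM per kb in CTL mice on day 0 (SD, n = 3). Hsp90b1 followed with 124 ± 11.5 CPM per kb, and its libraries overlapped with those of Calr. Hspa5, Canx and Atf4 came next, with 75.8, 68.2 and 56.5 CPM per kb and overlapping neighbours. Dnajb9 and Xbp1, at 22.9 and 21.9 CPM per kb, also overlapped, and below them Pdia4 (17.2), Ddit3 (6.91) and Sdf2l1 (3.71 CPM per kb) were separate from one another. On day 2 in CTL mice the order at the top was Calr (377), Hsp90b1 (320), Canx (205) and Hspa5 (148 CPM per kb), with no overlap between neighbours. Dnajb9 had moved from the sixth place to the last, with 5.01 ± 0.762 CPM per kb.

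**Figure D1:**
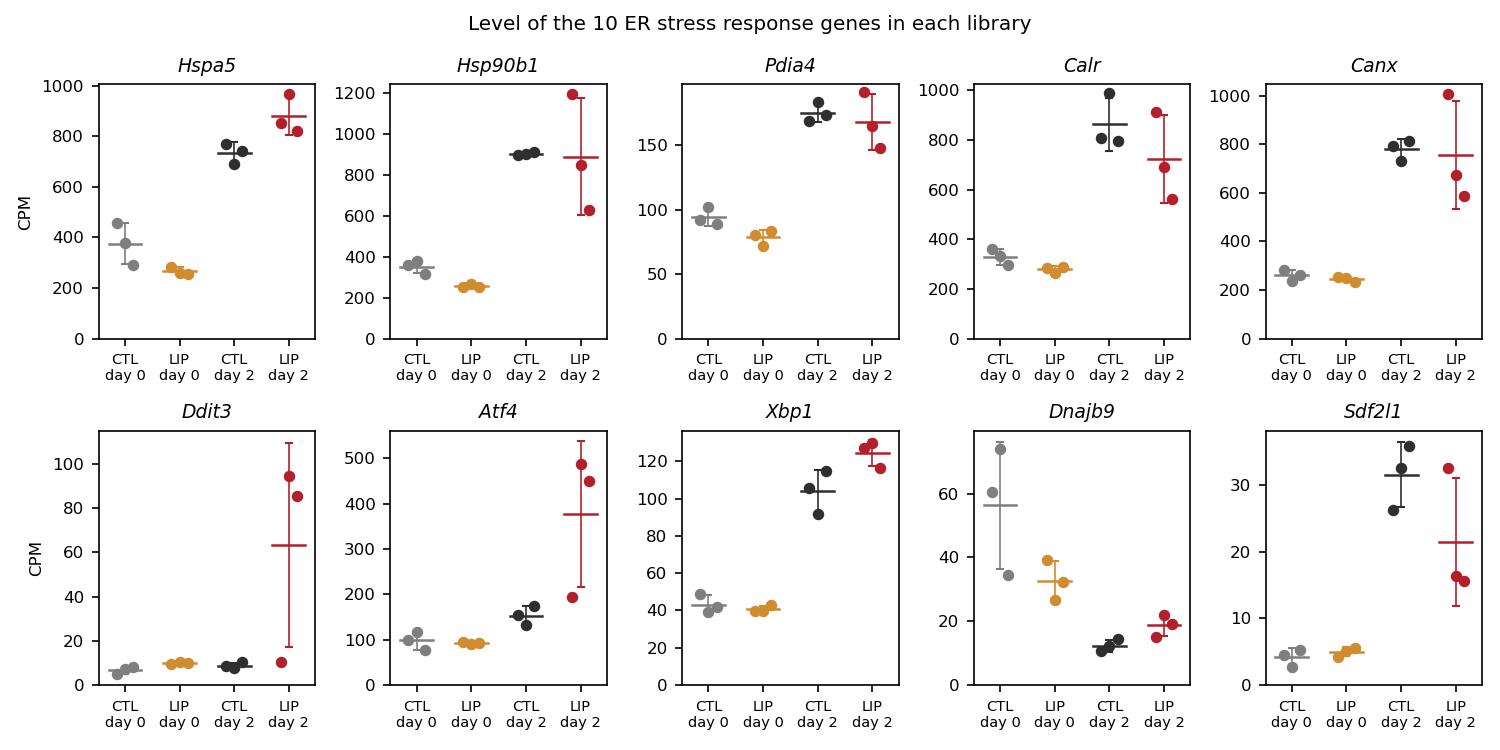
Level of each gene in CPM (vertical axis, starting at 0) in the 12 libraries, by group (horizontal axis). Points are libraries, the horizontal line is the mean and the error bar the SD of 3 libraries. Ddit3 stood at 94.3 and 85.6 CPM in LIP 96 and LIP 97 of day 2 and at no more than 10.4 CPM in each of the other 10 libraries.

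To see how these genes moved in culture with activation, day 2 was compared with day 0 within each group. In CTL mice 8 of the 10 genes rose and 1, Dnajb9, fell, and in LIP mice 9 rose and Dnajb9 fell. Calls here and below are at an adjusted p under 0.05 from edgeR's quasi-likelihood test, Benjamini-Hochberg adjusted over all genes tested. Many other genes also changed: 36.2% of all genes tested rose and 34.7% fell in CTL mice, and 36.1% rose and 35.4% fell in LIP mice. The median log2 fold change of the 10 genes was 1.10 in CTL mice and 1.66 in LIP mice, beside -0.01 and 0.01 over all genes tested. Without LIP 90, when 38.0% of all genes rose and 37.0% fell in LIP mice, 9 of the 10 rose and Dnajb9 fell. None of these calls was lost under any of the 13 alternatives of each comparison. Some markers of other cells also differed between the days. In CTL mice the 8 NK cell markers went from 62.6 to 67.5 CPM in sum to 5.84 to 18.8 CPM and the 12 plasma cell markers from 133 to 174 CPM to 62.7 to 94.7 CPM. In LIP mice they went from 54.3 to 63.5 CPM to 6.71 to 59.4 CPM and from 133 to 161 CPM to 64.3 to 93.9 CPM. Ighm carried the lower sum of the plasma cell markers, and the other 11 summed to 25.0 to 50.1 CPM on day 0 and 42.7 to 56.8 CPM on day 2. The 12 myeloid markers summed to 22.7 to 35.6 CPM in the libraries of day 0 and to 56.5 to 99.4 CPM in those of day 2, and without Cst3 and Mpeg1, which carried the higher sum, to 5.89 to 13.7 CPM and to at most 5.98 CPM. The part of these cells in the changes was not tested.

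Of the luminal chaperones, Hspa5 (ENSMUSG00000026864, chr2:34661982-34668880 of GRCm39, plus strand) encodes BiP, the HSP70 of the ER that also holds the stress sensors inactive. Its level was 455, 378 and 292 CPM in CTL 88, 89 and 94 and 285, 258 and 255 CPM in LIP 92, 93 and 94 on day 0. On day 2 it was 770.4, 689 and 743 CPM in CTL 92, 93 and 97 and 853, 969 and 822 CPM in LIP 90, 96 and 97. All 6 libraries of day 2 were above all 6 of day 0, with LIP below CTL on day 0 and above it on day 2. Hspa5 rose 1.93-fold in CTL mice (log2 0.95, SE 0.14, adjusted p = 0.00011) and 3.28-fold in LIP mice (log2 1.71, SE 0.11, adjusted p = 4.2e-06; without LIP 90, log2 1.75, SE 0.09). Rabepk, on the opposite strand, overlaps Hspa5 over 5980 bases, and the strand setting of the counting was not given in the sources used here, so reads of the overlap cannot be told apart. Rabepk held 13.3 to 36.7 CPM in the 12 libraries. Between LIP and CTL it ran as Hspa5 did, lower on day 0 (log2 -0.81, SE 0.22, adjusted p = 0.15) and higher on day 2 (0.54, SE 0.16, adjusted p = 0.17). The LIP effect of day 2 minus that of day 0 was 1.36 (SE 0.31, edgeR adjusted p = 0.087). In CTL mice it was lower on day 2 than on day 0 (log2 -0.88), unlike Hspa5.

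Hsp90b1 (ENSMUSG00000020048, chr10:86526073-86541446, minus strand) encodes GRP94, the HSP90 of the ER, on which integrins and Toll-like receptors depend for folding. It stood at 358, 379.6 and 315 CPM in the CTL libraries and at 254, 267 and 251 CPM in those of LIP mice of day 0, in the order of their numbers. On day 2 it stood at 899, 903 and 911 CPM in the CTL libraries and at 1195, 847 and 628 CPM in LIP 90, 96 and 97. The 3 CTL libraries of day 2 were nearly equal, while the LIP libraries lay on both sides of them. It rose 2.54-fold in CTL mice (log2 1.35, SE 0.10, adjusted p = 3.8e-07) and 3.43-fold in LIP mice (log2 1.78, SE 0.21, adjusted p = 0.00011), where LIP 90 was the highest library and the log2 fold change without it was 1.52 (SE 0.11).

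Pdia4 (ENSMUSG00000025823, chr6:47770077-47790462, minus strand) encodes ERp72, a protein disulfide isomerase that forms and reshuffles disulfide bonds. Its libraries held 89.1 to 102 CPM in CTL mice and 71.6 to 83.2 CPM in LIP mice on day 0, and 169 to 184 CPM and 147 to 191 CPM on day 2. The 2 days did not overlap, and the increases were the smallest among the chaperones, 1.83-fold in CTL mice (log2 0.87, SE 0.09) and 2.12-fold in LIP mice (log2 1.08, SE 0.12; without LIP 90, 1.00, SE 0.09).

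The lectin chaperones calreticulin and calnexin, which bind the sugar chains of newly made glycoproteins, moved alike. Calr (ENSMUSG00000003814, chr8:85567946-85573667, minus strand) went from 329 ± 32.7 to 863 ± 107 CPM in CTL mice and from 279 ± 12.2 to 722 ± 177 CPM in LIP mice (SD, n = 3 each). Canx (ENSMUSG00000020368, chr11:50183939-50216529, minus strand) went from 259.6 ± 21.8 to 779.5 ± 42.4 CPM in CTL mice and from 245 ± 9.65 to 756 ± 222 CPM in LIP mice. These were rises of 2.59-fold and 2.96-fold in CTL mice and of 2.56-fold and 3.05-fold in LIP mice, all with adjusted p of 0.00015 or lower. Without LIP 90, the highest LIP library for both, the log2 fold change in LIP mice was 1.17 (SE 0.10) for Calr and 1.37 (SE 0.08) for Canx. A processed pseudogene of Calr had no counts in the 12 libraries.

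The BiP cochaperones moved in opposite directions. Sdf2l1 (ENSMUSG00000022769, chr16:16948002-16950252, minus strand), an ER resident protein of the BiP cycle, was at 4.51, 2.64 and 5.25 CPM in the CTL libraries of day 0 and at 26.3, 32.5 and 35.8 CPM in those of day 2. In LIP mice it was at 4.26, 5.05 and 5.60 CPM on day 0 and at 32.6, 16.4 and 15.5 CPM in LIP 90, 96 and 97 on day 2. It had the largest fold change of the 10 genes in CTL mice, 7.56-fold (log2 2.92, SE 0.23), and rose 4.28-fold in LIP mice (SE 0.32 on the log2 scale), where without LIP 90 its log2 fold change was 1.68 (SE 0.18). On day 0 these levels rest on 22 to 42 counts per library. Dnajb9 (ENSMUSG00000014905, chr12:44252341-44257171, minus strand) encodes ERdj4, the J protein that brings BiP to IRE1 and helps clear misfolded proteins. It stood at 60.6, 73.9 and 34.5 CPM in CTL 88, 89 and 94 of day 0 and at 10.5, 12.2 and 14.3 CPM in CTL 92, 93 and 97 of day 2. In the LIP libraries it stood at 39.2, 26.7 and 32.4 CPM on day 0 and at 15.1, 21.9 and 19.1 CPM on day 2. Every library of day 2 was thus below every library of day 0. Dnajb9 fell 4.63-fold in CTL mice (log2 -2.21, SE 0.24, adjusted p = 1.1e-05) and 1.77-fold in LIP mice (log2 -0.82, SE 0.19, adjusted p = 0.0040; without LIP 90, log2 -0.67, SE 0.16). The summed CPM of 17 immediate early genes, transcripts that come up soon after stimulation or handling of cells, was 2459 and 2281 in CTL 88 and 89 and 1484 in CTL 94, so it was higher in the same libraries as Dnajb9. Its part in the fall of Dnajb9 was not tested. Without CTL 88, 89 or 94 in turn the call remained, but each of these fits kept CTL 88 or CTL 89, so they cannot decide this.

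Of the transcription factors, Xbp1 (ENSMUSG00000020484, chr11:5470606-5483027, plus strand) makes the factor that IRE1 activates by splicing, and gene counts do not show the splicing. It went from 43.2 ± 4.85 to 104 ± 11.5 CPM in CTL mice (2.38-fold, log2 1.25, SE 0.12) and from 40.6 ± 1.82 to 124 ± 7.10 CPM in LIP mice (3.04-fold, log2 1.60, SE 0.10; without LIP 90, log2 1.61, SE 0.09). Xbp1 lies within Ccdc117 on the opposite strand, a gene at 30.6 to 85.3 CPM that did not share the profile of Xbp1, being lower on day 2. Atf4 (ENSMUSG00000042406, chr15:80139372-80141745, plus strand), the factor of the PERK arm, was at 99.5, 118 and 77.7 CPM in CTL mice and 94.6, 91.2 and 93.6 CPM in LIP mice on day 0. On day 2 it was at 154, 132 and 174 CPM in the CTL libraries and at 193, 488 and 450.2 CPM in LIP 90, 96 and 97. It rose 1.54-fold in CTL mice (log2 0.62, SE 0.15, adjusted p = 0.0029) and 4.01-fold in LIP mice (SE 0.30 on the log2 scale, adjusted p = 0.00045), and without LIP 90 the log2 fold change was 2.34 (SE 0.08).

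Ddit3 (ENSMUSG00000025408, chr10:127124268-127132163, plus strand) encodes CHOP, the factor downstream of ATF4 that is tied to cell death when ER stress lasts. It stood at 4.96, 7.33 and 8.01 CPM in CTL 88, 89 and 94 and at 9.35, 10.4 and 9.73 CPM in LIP 92, 93 and 94 on day 0. On day 2 it stood at 8.44, 7.75 and 10.2 CPM in CTL 92, 93 and 97 and at 10.3, 94.3 and 85.6 CPM in LIP 90, 96 and 97. The CTL groups of the 2 days overlapped, and LIP 90 lay among the LIP libraries of day 0, while LIP 96 and LIP 97 were far above all others. In CTL mice its log2 fold change of 0.35 (SE 0.23) was not called (adjusted p = 0.19). In LIP mice it rose 6.36-fold (log2 2.67, SE 0.69, adjusted p = 0.0076), and without LIP 90 the log2 fold change was 3.20 (SE 0.11). Its depth was 33 to 115 counts in every library but LIP 96 and LIP 97, which held 1009 and 662. Ddit3 shares 3820 bases with Mars1 and shorter stretches with Mbd6 on the opposite strand. Mars1, the methionyl-tRNA synthetase gene, was at 95.4 to 104 CPM in the CTL libraries and at 98.7, 207 and 231 CPM in LIP 90, 96 and 97 of day 2, so it too was high in LIP 96 and LIP 97, and reads in the overlap cannot be told apart. A second gene record named Ddit3 in the same place had no counts in the 12 libraries.

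**Figure D2:**
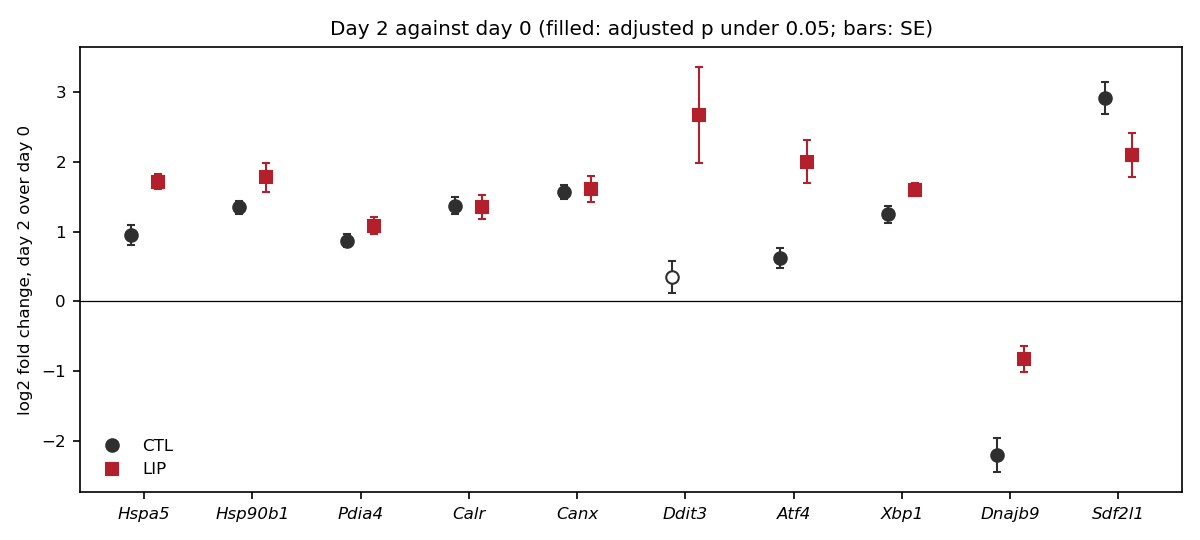
Log2 fold change of day 2 over day 0 (vertical axis) of each gene in CTL mice (circles) and the LIP group (squares), with the SE as the bar and filled symbols for adjusted p under 0.05. All symbols are filled except Ddit3 in CTL mice, and Dnajb9 alone lies below 0 in both groups.

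The other genes of the pathway were read from 8 lists that held none of the 10 genes. Their counts stand beside the shares of all genes given above, 36.2% higher and 34.7% lower in CTL mice and 36.1% and 35.4% in LIP mice, and several lists lay not far from them. Of the luminal chaperones and foldases 23 of 31 tested rose and 5 fell in CTL mice, and 22 of 30 rose and 5 fell in LIP mice. Prdx4, a peroxiredoxin that oxidises the isomerases, rose most in LIP mice (log2 2.46, from 6.86 ± 0.313 to 38.2 ± 5.55 CPM), whereas Ero1b, another oxidase of the isomerases, fell in both groups (log2 -1.20 in CTL and -0.84 in LIP) and its paralog Ero1a rose (log2 1.73 and 2.01). Pdia5, the gene with the largest rise of this list in CTL mice, held at most 0.263 CPM in the CTL libraries of day 0 and 2.04 to 2.32 CPM on day 2. In the calnexin cycle 7 of 10 rose and 1 fell in CTL mice, and 8 of 10 rose and 1 fell in LIP mice. Prkcsh, the β subunit of glucosidase II, rose most (log2 1.84 in CTL and 2.11 in LIP), and Uggt2, a folding sensor that puts glucose back on, fell in both groups (log2 -2.40 and -2.11).

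Among the sensors of the unfolded protein response 5 of 11 rose and 1 fell in each group. Creb3l2, an ER-anchored factor related to ATF6, rose most (log2 3.04 in CTL and 3.44 in LIP). Mbtps1, the protease that makes the first cut in ATF6, fell (log2 -0.56 and -0.66). In ER-associated degradation, which hands misfolded proteins to the proteasome, 14 of 30 rose and 6 fell in CTL mice and 15 of 29 rose and 3 fell in LIP mice. Its extremes were Vcp (log2 1.28 in CTL), Sec61b (log2 1.46 in LIP) and Herpud2 (log2 -1.25 in CTL and -1.12 in LIP). In the translocon and secretory pathway 30 of 42 rose and 1 fell in CTL mice, and 36 of 42 rose and 1 fell in LIP mice. Ssr2, of the translocon-associated complex, rose most (log2 2.17 and 2.37), and the genes that fell were Srp9 in CTL (log2 -0.25) and Kdelr3 in LIP (log2 -1.14).

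Of the integrated stress response targets 27 of 35 rose and 2 fell in CTL mice, and 33 of 35 rose and 1 fell in LIP mice. Atf3, a factor induced by ATF4, held at most 0.394 CPM in each library of day 0, 108 to 135 CPM in the CTL libraries and 195 to 208 CPM in those of LIP mice of day 2. Ppp1r15a, which encodes GADD34 and directs the phosphatase of eIF2α, fell in CTL mice, from 189, 224 and 72.5 CPM in CTL 88, 89 and 94 to 37.4 to 44.9 CPM. Ddit4, an inhibitor of mTORC1 signalling, fell in LIP mice (log2 -0.89). Of the eIF2α kinases and the eIF2 switch 9 of 14 rose and 1, Ppp1r15a, fell in CTL mice, and 10 of 14 rose and none fell in LIP mice. Eif2ak2, the kinase PKR that senses double-stranded RNA, rose most (log2 2.01 and 3.13), and the smallest rise called in LIP mice was that of Ppp1r15b (log2 0.37), the constitutive partner of the phosphatase. Of the cytosolic heat shock genes, which serve proteins outside the ER, 12 of 28 rose and 10 fell in CTL mice, near the shares of all genes, and 15 of 27 rose and 4 fell in LIP mice. Hspa14 (the record ENSMUSG00000109865, of 2 with this symbol) rose most in CTL (log2 1.58) and Hsp90ab1 in LIP (log2 2.62), and Dnajb4 fell in both (log2 -1.81 and -1.07). Without LIP 90 the genes that rose and fell in LIP mice were 22 and 5 of 30 luminal chaperones and foldases, 8 and 1 of 10 in the calnexin cycle, 7 and 2 of 11 sensors, 17 and 4 of 29 in ER-associated degradation and 36 and 2 of 42 in the translocon and secretory pathway. They were 34 and 1 of 37 integrated stress response targets, 10 and 1 of 14 for the eIF2 switch and 15 and 7 of 27 cytosolic heat shock genes.

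Of the 10 genes 4, all of them chaperones, carried the ER stress element in the promoter. This is the sequence CCAAT, any 9 bases, then CCACG, to which ATF6 binds together with NF-Y. No copy lay in the promoters of Pdia4, Ddit3, Atf4, Xbp1, Dnajb9 and Sdf2l1. Promoters were the 300 bases around the start site (250 before and 50 after it) from RefSeq (GRCm38.p6), of which the table holds 32851; all 10 genes matched, and each window was found once in GRCm39. The element was searched on both strands and was present in 39 promoters, 0.119% of all, among them those of Hspa5, Hsp90b1 (2 copies), Calr and Canx. The copies are shown 5′ to 3′ in the direction of the element with 5 flanking bases, and capitals mark the element.
Hspa5, chr2:34662032-34662060, plus strand: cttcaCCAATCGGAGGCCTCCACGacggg
Hsp90b1, chr10:86541497-86541525, minus strand: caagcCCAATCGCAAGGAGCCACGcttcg
Hsp90b1, chr10:86541392-86541420, plus strand: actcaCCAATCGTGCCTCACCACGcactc
Calr, chr8:85573699-85573727, plus strand: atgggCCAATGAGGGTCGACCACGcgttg
Canx, chr11:50216622-50216650, minus strand: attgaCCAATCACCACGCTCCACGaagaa

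The copies began 65 bases upstream of the RefSeq start in Hspa5, 212 and 107 bases upstream in Hsp90b1, 162 bases upstream in Calr and 145 bases upstream in Canx. Hsp90b1 and Calr each had a copy that reads against the direction of the gene. GENCODE places the copy of Hspa5 and the nearer copy of Hsp90b1 in an exon of the gene itself, whose annotated transcripts start further upstream there. The farther copy of Hsp90b1 lies in an exon of Ttc41 on the other strand, that of Canx in an exon of Gm73210, and that of Calr in no annotated exon. The shorter sequence TGACGTG, bound by XBP1 and ATF6, was present on either strand in 2.01% of all promoters and in that of Hspa5 alone among the 10 (agcaaTGACGTGagttg, chr2:34661940-34661956, plus strand). It did not overlap the ER stress element. The related element ATTGG, any base, then CCACG was in 0.0365% of all promoters, the sequence TTGCATCA bound by ATF4 with C/EBP factors in 0.895%, and the heat shock element (3 alternating GAA and TTC units with 2 bases between them) in 0.603%, and no promoter of the 10 genes held any of these. A match is a description of the letters and no measure of binding in these cells.

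To see how the cells differed before culture, LIP was compared with CTL on day 0. The chaperones had lower means in LIP mice, and 1 of the 10 genes, Hsp90b1, passed the test. It was 1.36-fold lower (log2 -0.44, SE 0.08, adjusted p = 0.036), from 351 ± 32.7 to 257 ± 8.37 CPM (SD, n = 3 each). Over all genes tested 0.37% were called lower and 0.0569% higher. At an unadjusted p under 0.05, 5 genes were lower (Hspa5, Hsp90b1, Pdia4, Calr and Dnajb9) and 1, Ddit3, was higher, beside 7.2% and 6.67% of all genes tested. The libraries of the groups did not overlap for 4 lower genes (Hspa5, Hsp90b1, Pdia4 and Calr) and for Ddit3, beside 9.85% and 9.27% of all genes. The median log2 fold change of the 10 genes was -0.15, and over all genes it was 0.01.

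Hspa5 was at 375 ± 81.6 CPM in CTL mice and at 266 ± 16.4 CPM in LIP mice (log2 -0.49, SE 0.13, adjusted p = 0.14). CTL 94, at 292 CPM, was close to the highest LIP library, at 285 CPM. Pdia4 (log2 -0.26, SE 0.08, adjusted p = 0.20) and Calr (log2 -0.23, SE 0.08, adjusted p = 0.24) differed less, and for Canx the value was -0.08 (adjusted p = 0.69). Dnajb9 had the largest difference, log2 -0.78 (SE 0.22, adjusted p = 0.16), with CTL 94 at 34.5 CPM inside the LIP range of 26.7 to 39.2 CPM. For the factors the values were 0.53 for Ddit3 (SE 0.20, adjusted p = 0.27), -0.07 for Atf4 (adjusted p = 0.82) and -0.08 for Xbp1 (adjusted p = 0.76), and for Sdf2l1 it was 0.28 (adjusted p = 0.69). Ddit3 and Sdf2l1 were the only genes of the 10 with a positive value.

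The call of Hsp90b1 was lost without CTL 88, LIP 92, LIP 93 or LIP 94 (adjusted p between 0.16 and 0.27). It was also lost in a fit of all 12 libraries (adjusted p = 0.60) and with scaling by library totals alone (adjusted p = 0.064). Without CTL 94 there were 4 calls, all lower: Hspa5, Hsp90b1, Calr and Dnajb9, when 2.8% of all genes were called lower and 1.79% higher. Of the 17 immediate early genes 15 were tested. With all libraries 3 were called lower in LIP mice and none higher, beside 0.37% and 0.0569% of all genes. Their sum in CTL 94, 1484 CPM, lay within the range of the LIP libraries, 1267 to 1551 CPM, below the 2459 and 2281 CPM of CTL 88 and 89. The summed CPM of 12 plasma cell markers, cells rich in ER, was 133 to 174 in CTL and 133 to 161 in LIP. Of these markers Sdc1 and Mzb1 held no more than 0.267 CPM on day 0, Jchain 1.68 to 5.51 CPM, Igkc 5.41 to 20.7 CPM and Ighm, which B cells also express, 94.6 to 124 CPM. Tnfrsf13b was higher in LIP without overlap, at 16.3 to 21.5 CPM in CTL and 22.2 to 26.7 CPM in LIP. Derl3 was lower in LIP without overlap, at 1.08 CPM or more in CTL and at most 0.983 CPM in LIP. The 8 NK cell markers summed to 62.6 to 67.5 CPM in CTL and 54.3 to 63.5 CPM in LIP, and 1 of them, Prf1, did not overlap between the groups (36.1 to 52.5 and 26.4 to 31.2 CPM). The other 6 detected NK cell markers had higher means in LIP, and without Prf1 the list summed to 10.1 to 28.6 CPM in CTL and 23.1 to 34.7 CPM in LIP. The summed CPM of 25 acinar markers was 0.961 to 2.63 in CTL and 1.79 to 35.7 in LIP, 3 of them at 0 in all libraries. The part of the immediate early genes and of these cells in the differences was not tested.

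Among the 8 pathway lists, calls were made on day 0 in 1, the cytosolic heat shock genes. Of its 27 genes tested 15 were called lower and none higher in LIP mice, beside 0.37% and 0.0569% of all genes. Their median was -0.62 on the log2 scale. Hsph1, the nucleotide exchange factor HSP110, differed most, from 262, 255 and 297 CPM in the CTL libraries to 87.0, 83.7 and 92.8 CPM in those of LIP mice (log2 -1.62, SE 0.08, adjusted p = 3.0e-06). The smallest difference called was that of Ptges3, the HSP90 cochaperone p23 (log2 -0.61, SE 0.09, adjusted p = 0.016). The whole list summed to 5153, 5192 and 5428 CPM in the CTL libraries and to 2912, 2880.4 and 3055 CPM in those of LIP mice, and here CTL 94 was the highest. The count of 15 was 5 in the fit of 12 libraries and 8 to 15 with 1 library left out (8 without LIP 93 and 9 without LIP 94). In the other 7 lists edgeR called no gene, and DESeq2, which called 0.263% of all genes higher and 1.17% lower, called 1 lower in each of 3 lists (ER-associated degradation, the translocon and secretory pathway, and the integrated stress response targets). At an unadjusted p under 0.05 each of the 7 lists had 0 to 3 genes higher and 1 to 6 lower, beside 6.67% and 7.2% of all genes. In the translocon and secretory pathway 33 of 42 values were negative. There 6 lower and 1 higher passed this cut, and 10 lower and 1 higher had no overlap. In ER-associated degradation 20 of 29 were negative, with 4 lower and 0 higher under the cut and 5 lower and 0 higher without overlap. Over all genes 9.85% lower and 9.27% higher had no overlap. The medians of the 7 lists lay between -0.08 and 0.09, also for the luminal chaperones and foldases (-0.01) and the calnexin cycle (0.03).

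**Figure D3:**
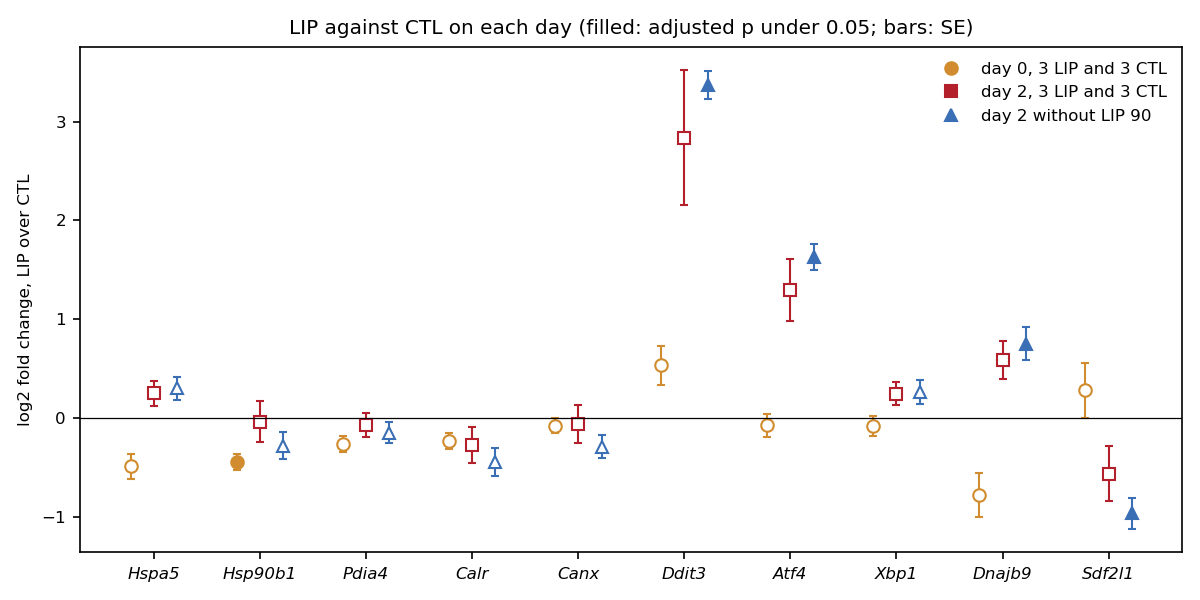
Log2 fold change of LIP over CTL (vertical axis) of each gene on day 0 (circles), on day 2 (squares) and on day 2 without LIP 90 (triangles), with the SE as the bar and filled symbols for adjusted p under 0.05. Hsp90b1 alone is filled on day 0, none is filled on day 2 with all libraries, and Ddit3, Atf4, Dnajb9 and Sdf2l1 are filled without LIP 90.

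On day 2 Ddit3 and Atf4 had higher means in LIP mice, through LIP 96 and LIP 97, and the chaperones showed no common direction. With all 6 libraries edgeR called none of the 10 genes, as it called 0.0% of all genes higher and 0.0% lower. At an unadjusted p under 0.05, 3 genes were higher (Ddit3, Atf4 and Dnajb9) and 0 lower, beside 8.33% and 8.2% of all genes, and DESeq2 called 2 higher, Ddit3 (adjusted p = 0.028) and Atf4 (adjusted p = 0.0013), beside 2.04% of all genes higher and 1.42% lower. The libraries did not overlap for 5 higher genes (Hspa5, Ddit3, Atf4, Xbp1 and Dnajb9) and for 0 lower ones, beside 10.9% and 10.5% of all genes. The mean of Ddit3 was 7.15-fold that of CTL by the fit (log2 2.84, SE 0.68, adjusted p = 0.14) and that of Atf4 2.45-fold (log2 1.29, SE 0.31, adjusted p = 0.14). Each of these rests on LIP 96 and LIP 97: in LIP 90 Ddit3 was at 10.3 CPM, beside 10.2 CPM in the highest CTL library, and Atf4 at 193 CPM, beside 174 CPM.

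Without LIP 90, 4 of the 10 genes were called, when 7.74% of all genes were called higher and 6.19% lower. The lone pair LIP 96 and LIP 97 then stood for the LIP group. Ddit3 (log2 3.37, SE 0.14, adjusted p = 2.2e-06), Atf4 (log2 1.63, SE 0.13, adjusted p = 8.2e-05) and Dnajb9 (log2 0.75, SE 0.17, adjusted p = 0.019) were higher. Sdf2l1 was lower (log2 -0.97, SE 0.16, adjusted p = 0.0053), since LIP 96 and LIP 97 held 16.4 and 15.5 CPM and the lowest CTL library 26.3 CPM. The chaperones took values of -0.45 for Calr (adjusted p = 0.066), -0.29 for Canx (adjusted p = 0.13), -0.28 for Hsp90b1 (adjusted p = 0.20), -0.15 for Pdia4 (adjusted p = 0.38) and 0.30 for Hspa5 (adjusted p = 0.12), and Xbp1 was at 0.26 (adjusted p = 0.18).

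With all libraries Hspa5 was at 881 ± 77.1 CPM in LIP and 734 ± 41.1 CPM in CTL (log2 0.25, SE 0.12, adjusted p = 0.35), and Xbp1 at 124 ± 7.10 and 104 ± 11.5 CPM (log2 0.25, SE 0.12, adjusted p = 0.35). The values were -0.04 for Hsp90b1, -0.07 for Pdia4, -0.06 for Canx, -0.27 for Calr and -0.56 for Sdf2l1, with adjusted p between 0.35 and 0.95. Within LIP mice the SD of Hsp90b1 was 286 CPM, beside 6.21 CPM in CTL mice. For Hsp90b1, Pdia4, Calr, Canx and Sdf2l1 LIP 90 was the highest of the LIP libraries and LIP 97 the lowest. For Ddit3 and Atf4 LIP 90 was the lowest.

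Among the other genes of the pathway the targets of the integrated stress response moved with Ddit3 and Atf4. Of 36 tested none was called with all libraries by edgeR, and the median log2 fold change was 1.27. At an unadjusted p under 0.05, 29 were higher and 1 lower, beside 8.33% and 8.2% of all genes. For 22 higher and 1 lower the libraries did not overlap, beside 10.9% and 10.5% of all genes. DESeq2 called 23 higher and 1 lower, beside 2.04% and 1.42%. Without LIP 90, edgeR called 31 of 38 higher and 1 lower, beside 7.74% and 6.19%, with a median of 1.68. The list summed to 2452, 2482 and 2679 CPM in the CTL libraries and to 3017, 6422 and 6277 CPM in LIP 90, 96 and 97, so that LIP 90 was above the CTL libraries but nearer to them than to its own group.

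Of the lists of the ER itself, the sensors of the unfolded protein response showed this split, with 614 to 630 CPM in the CTL libraries and 621, 747 and 737 CPM in LIP 90, 96 and 97. The luminal chaperones and foldases summed to 2848 to 3076 CPM in the CTL libraries and to 3569, 3041 and 2661 CPM in LIP 90, 96 and 97. The translocon and secretory pathway summed to 4631 to 4921 CPM and to 5519, 5147 and 4618 CPM. Both were highest in LIP 90 and lowest in LIP 97, the order of Hsp90b1. The calnexin cycle summed to 1582 to 1817 CPM in the CTL libraries and was also highest in LIP 90, at 1885 CPM beside 1639 and 1680 CPM. For ER-associated degradation all LIP libraries, at 2865, 3027 and 2876 CPM, lay above the CTL libraries, at 2597 to 2702 CPM. Without LIP 90, when 7.74% of all genes were called higher and 6.19% lower, the calls higher and lower were 2 and 1 of 32 luminal chaperones and foldases, 0 and 1 of 10 genes of the calnexin cycle, 4 and 0 of 11 sensors, 5 and 1 of 29 genes of ER-associated degradation, and 3 and 0 of 42 genes of the translocon and secretory pathway. For the eIF2α kinases and the eIF2 switch they were 4 and 0 of 14, and for the cytosolic heat shock genes 1 and 5 of 28.

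**Figure D4:**
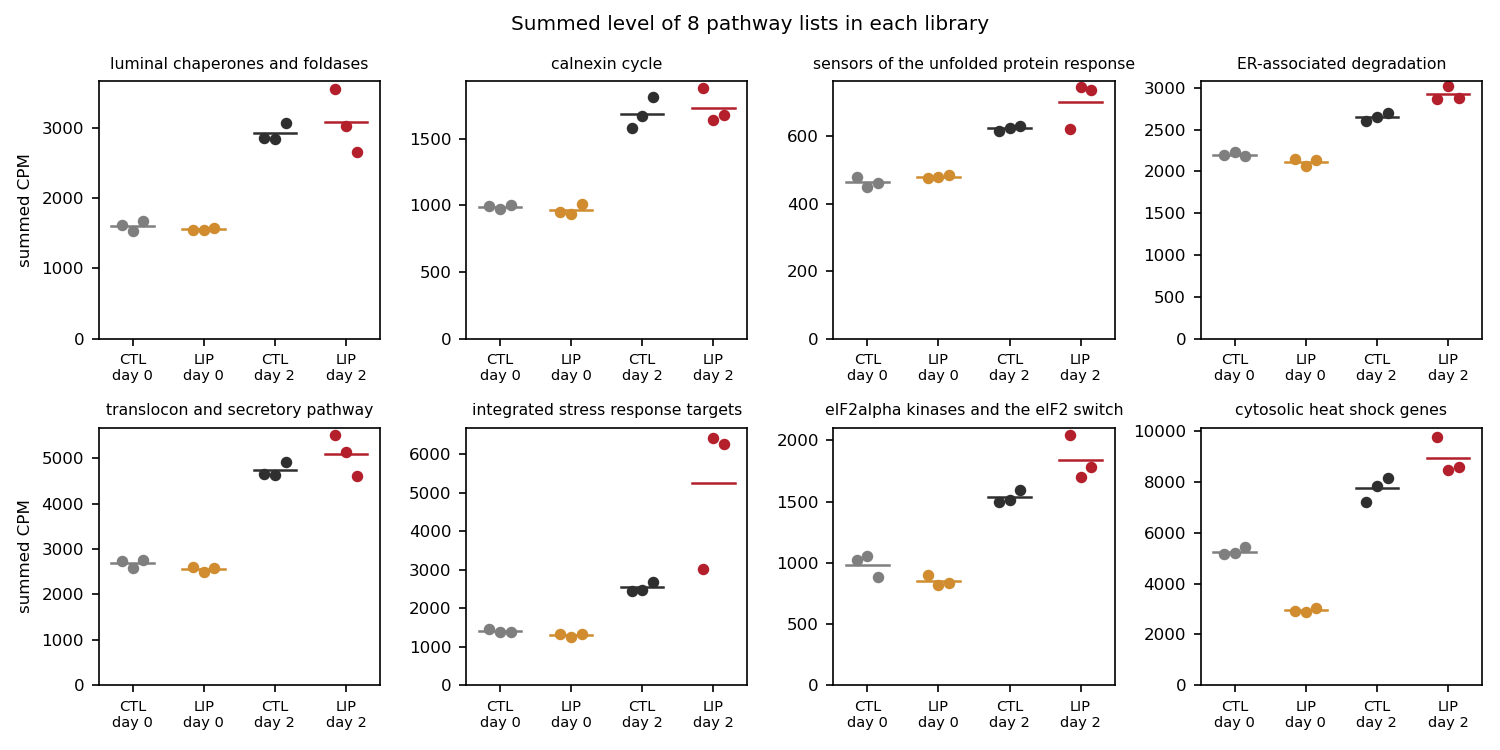
Summed CPM (vertical axis, starting at 0) of 8 pathway lists in the 12 libraries, by group (horizontal axis). Points are libraries and lines the means of 3 libraries. The cytosolic heat shock genes sum to 2880.4 to 3055 CPM in those of LIP mice of day 0 and to 5153 CPM or more in the others, and the integrated stress response targets reach 6422 and 6277 CPM in LIP 96 and LIP 97 of day 2.

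Markers of other cells also differed among the libraries of day 2. The summed CPM of 10 B cell markers was 4.96, 5.60 and 24.2 in CTL 92, 93 and 97, respectively. In LIP 90, 96 and 97 it was 2.95, 39.7 and 36.5. It was thus highest in LIP 96, LIP 97 and CTL 97, where Ddit3 was at 94.3, 85.6 and 10.2 CPM. The summed CPM of 8 NK cell markers was 6.86, 5.84 and 18.8 in the CTL libraries and 6.71, 59.4 and 17.6 in those of LIP mice, of which Gzma held 46.1 CPM in LIP 96. Without Gzma they summed to 13.3 CPM in LIP 96 and to 4.54 to 7.89 CPM in the other libraries of day 2. That of 12 myeloid markers was 56.5 to 56.7 in the CTL libraries and 59.4, 70.9 and 99.4 in those of LIP mice, and without Mpeg1 it was 49.1 to 54.7 and 39.9, 54.8 and 51.6. The CD8 T cell markers Cd8a and Cd8b1 summed to 13.2 and 9.19 CPM in LIP 96 and LIP 97. In LIP 90 they summed to 4.92 CPM and in the CTL libraries to 4.42 to 6.32 CPM. The part of these cells in the values of Ddit3 and Atf4 was not tested.

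Whether the effect of LIP differed between the days was tested as the LIP effect of day 2 minus that of day 0. None of the 10 genes was called by edgeR, beside 0.0323% of all genes higher and 0.0194% lower. At an unadjusted p under 0.05, 5 were higher (Hspa5, Ddit3, Atf4, Xbp1 and Dnajb9) and 0 lower, beside 8.65% and 7.28% of all genes, and DESeq2 called 3 higher, Hspa5, Atf4 and Dnajb9, beside 2.4% of all genes higher and 0.963% lower. For Hspa5 the difference was 0.76 on the log2 scale (SE 0.19, adjusted p = 0.10), for Dnajb9 1.38 (SE 0.35, adjusted p = 0.10), for Atf4 1.38 (SE 0.37, adjusted p = 0.11) and for Ddit3 2.31 (SE 0.83, adjusted p = 0.19). For Sdf2l1 it was -0.82 (SE 0.44, adjusted p = 0.39). For Hsp90b1, Xbp1, Pdia4, Canx and Calr it was 0.43, 0.35, 0.21, 0.04 and -0.02 (adjusted p between 0.30 and 0.98). Hspa5 and Dnajb9 were lower in LIP on day 0 and higher on day 2 by their means, and for Hspa5 the libraries did not overlap on either day. Without LIP 90 there were 5 calls, Hspa5 (0.78), Ddit3 (2.83), Atf4 (1.69) and Dnajb9 (1.52) higher and Sdf2l1 (-1.26) lower, when 5.64% of all genes were called higher and 4.45% lower. Without CTL 94 of day 0 there were 2, Hspa5 and Dnajb9, when 0.131% of all genes were called higher and 0.0375% lower.

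In the 8 lists 3 genes were called in this comparison. Eif2s2, the β subunit of eIF2, differed by 1.22 (SE 0.17, adjusted p = 0.019), Hsp90ab1, the constitutive cytosolic HSP90, by 1.46 (SE 0.13, adjusted p = 0.00067) and Hspa8, the constitutive cytosolic HSP70, by 1.42 (SE 0.19, adjusted p = 0.017). With each of the 12 libraries left out in turn, Hsp90ab1 was called 12 times, Hspa8 7 times and Eif2s2 5 times. Both of the latter were lost without CTL 88, CTL 89, LIP 92 or LIP 93 of day 0 or CTL 93 of day 2, and Eif2s2 also without LIP 94 of day 0 or LIP 97 of day 2 (adjusted p up to 0.12). Without LIP 90 the differences were 1.35 for Eif2s2, 1.47 for Hsp90ab1 and 1.53 for Hspa8, all called. Of the integrated stress response targets none was called by edgeR, and the median was 1.42. At an unadjusted p under 0.05, 21 of 36 were higher and 1 lower, beside 8.65% and 7.28% of all genes. DESeq2 called 12 higher, beside 2.4% of all genes higher and 0.963% lower. Without LIP 90, edgeR called 24 of 38 higher and 1 lower, beside 5.64% and 4.45%, with a median of 1.73.

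Genes with a profile like that of Hspa5 and of Ddit3 were sought among 15474 others by the root mean square difference of centred log2 CPM over the 12 libraries, in which the groups, days and depth are shared. Nearest to Hspa5 were Sgo1, a guardian of chromosome cohesion (0.13), Bex3 (0.14), the ribosomal protein gene Rpl7 (0.17), the pseudogene Rpl28-ps1 (0.17) and Eri1, an exonuclease of histone transcripts (0.18). Xbp1 came at rank 22 (0.19), Hsp90b1 at rank 300, Pdia4 at 450, Calr at 456 and Canx at 625, so none of the other chaperones was among the nearest genes. Nearest to Ddit3 were Pck2 (0.29), Cyb5r1 (0.30), Nars (0.53), Mthfd2 (0.54) and Cars (0.54), and Atf4 came at rank 18 (0.66). Pck2, a mitochondrial phosphoenolpyruvate carboxykinase, stood at 17.8 to 23.5 CPM in 10 libraries and at 175 and 163 CPM in LIP 96 and LIP 97. Pck2, Nars, Mthfd2 and Cars are on the list of integrated stress response targets. Nars and Cars encode tRNA synthetases and Mthfd2 an enzyme of mitochondrial folate metabolism. Cyb5r1, a reductase on no list, stood at 8.57 to 17.5 CPM in 10 libraries and at 142 and 116 CPM in LIP 96 and LIP 97.

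**Figure D5:**
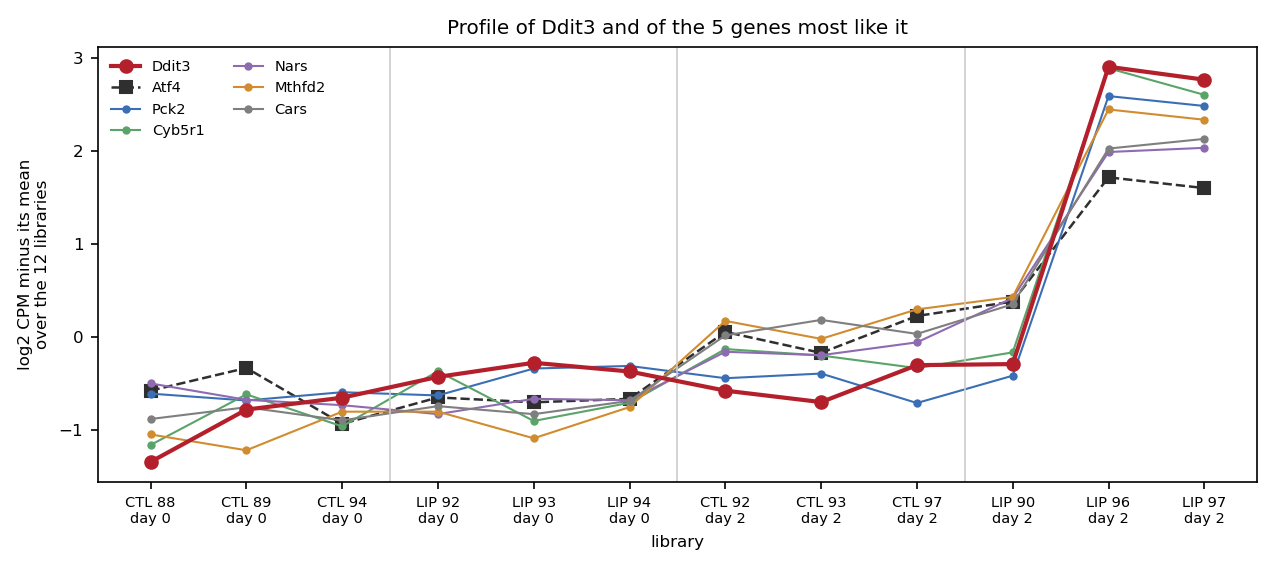
Log2 CPM minus its mean over the 12 libraries (vertical axis) of Ddit3, Atf4 and the 5 genes with the profile most like that of Ddit3, in each library (horizontal axis, grey lines between groups). Each gene is highest in LIP 96 and LIP 97 of day 2, and LIP 90 lies nearer to the CTL libraries of day 2 than to these.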

How the data were processed

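RNA of 12 libraries (4 groups of 3) was sequenced by the study as rRNA-depleted directional paired-end libraries. The authors trimmed reads with Trimmomatic (0.38 per the labels) after FastQC (0.11.9) and deposited expected counts per gene from RSEM (1.3.0) with Bowtie2 on GRCm39. The annotation release and strand setting were not given in the sources used here. 73267 deposited values were not whole, and all were rounded. Another 2 library columns matched no labelled sample and were not used, nor were the deposited CPM, fold changes and p-values of the authors' own edgeR comparisons; only their gene symbols were. Positions are from GENCODE mouse release 39.

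Genes were filtered with filterByExpr, scaled by TMM and tested with edgeR (4.0.16, R 4.3.3), whose quasi-likelihood F-test was fitted to the 6 libraries of each comparison and, for the difference between days, to all 12. DESeq2 (1.42.0), other scalings, other filters, a fit of all 12 libraries and each library left out were the alternatives, and a block on the library number was added after seeing the data. The comparisons of day and of LIP share groups. The named genes were all 10 members, the extreme called genes of each pathway list and the 5 nearest profiles; Ero1a and single marker genes were named after their values were seen. Members and lists were chosen with earlier results of these data known.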

Additional observations from a re-analysis of the deposited data

Results flagged for a closer look

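The LIP effect differed between the days by the test for Eif2s2 (1.22 on the log2 scale), Hsp90ab1 (1.46) and Hspa8 (1.42). The call of Hsp90ab1 was kept with any 1 library left out, and those of Hspa8 and Eif2s2 were lost in 5 and 7 of the 12 such fits. Hsp90ab1 was at 1276 ± 84.7 CPM in CTL and 597 ± 16.8 CPM in LIP on day 0, and at 2874 ± 216 and 3702 ± 80.9 CPM on day 2 (SD, n = 3 each). Hspa8 was at 874 ± 54.7 and 452 ± 49.9 CPM on day 0 and at 1105 ± 137 and 1528 ± 240.0 CPM on day 2, and Eif2s2 at 89.3 ± 5.80 and 74.5 ± 6.64 CPM and at 156 ± 1.52 and 304 ± 50.3 CPM. Hspa5 was lower in every LIP library than in every CTL library on day 0 and higher in every one on day 2, but the difference of the log2 effects, 0.76, did not pass the test (edgeR, adjusted p = 0.10; 0.011 by DESeq2; 0.020 without LIP 90).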

How the results depend on the processing

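The calls between days kept their direction and their side of the threshold under all 13 alternatives in each group. On day 0 the number of the 10 genes called in LIP against CTL was 1; it was 0 by library totals alone and in the fit of 12 libraries, 2 by DESeq2, 3 with no filter, and 0 to 4 with 1 library left out. On day 2 it was 0; it was 2 (Ddit3 and Atf4) by DESeq2, with no filter and in the fit of 12 libraries, and 0 to 4 with 1 library left out. For the difference between days it was 0; it was 3 by DESeq2, 4 with no filter, and 0 to 5 with 1 library left out. The cause was not tested. Values that changed sign were all uncalled. With 1 library left out, those of LIP against CTL ranged from -0.22 to 0.076 for Atf4 and -0.15 to 0.0057 for Xbp1 on day 0, and from -0.28 to 0.16 for Hsp90b1, -0.15 to 0.013 for Pdia4 and -0.29 to 0.098 for Canx on day 2; Hsp90b1 was at 0.00080 on day 2 with no filter. The difference between days ranged from -0.22 to 0.13 for Calr and -0.22 to 0.20 for Canx, and for Canx it was -0.00028 by upper quartile and -0.14 by library totals alone. Within a comparison of 6 libraries the groups share at most 1 library number, so no paired fit has residual degrees of freedom there. Across the 12 libraries 4 numbers recur in 2 groups each (correlation of deviations -0.05 to 0.10 across genes), and the number was not taken as a pairing. For number 94, in CTL and LIP of day 0, the correlation of 0.10 was above the highest of either library with another number (0.054 and 0.077). For numbers 92, 93 and 97 it was negative. Whether the libraries of number 94 share a source or batch was not tested. With the number as a replicate block, chosen after seeing the data and leaving 1 residual degree of freedom, 2 of the 10 genes (Ddit3 and Atf4) and 550 of all genes were called in the difference between days, and the values of Hsp90b1 (-0.21), Pdia4 (-0.13), Canx (-0.32) and Xbp1 (-0.0076) changed sign.

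Over all genes, the calls of LIP against CTL numbered 60 on day 0 (12 in the fit of 12 libraries, 202 by DESeq2, 645 with no filter, 658 without CTL 94) and 0 on day 2 (485 by DESeq2, 662 with no filter, 775 in the fit of 12 libraries, 2014 without LIP 90). For the difference between days they numbered 8 (520 by DESeq2, 815 with no filter, 97 by library totals alone, 1596 without LIP 90, and 1 without CTL 88, CTL 89, LIP 92 or LIP 93 of day 0 or CTL 93 of day 2). Upper-quartile scaling moved the median change between days to -0.28 in CTL and -0.29 in LIP and the share of calls that rose from 51.1% to 39.1% and from 50.5% to 37.8%. With library totals alone the median moved to -0.18 in CTL and -0.34 in LIP (43.4% and 36.1% of calls rose) and, for the difference between days, to -0.17, with 9.28% of calls higher against 62.5%. On day 0, 13.3% of calls were higher, 30.2% with library totals alone and 40.8% with no filter. The calls between days of the 10 genes were the same under each scaling. Levels under 0.268 to 0.451 CPM rest on fewer than 3 counts in a library.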
